A study of Homo sapiens with 10 samples.

Results

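The genes described here are 37 genes of the G1/S transition and of DNA replication, chosen by name and found by their symbols among the 60651 gene rows of the count table. All 37 were found. They comprise 4 genes of origin recognition and helicase loading, the 6 subunits of the MCM hexamer, 6 genes of helicase activation, 6 polymerase genes, 7 genes of the sliding clamp and of strand maturation, 4 genes of nucleotide supply and 4 genes of G1/S control. The study sequenced RNA of cultured human cells in 5 groups with 2 libraries per group, 10 in all. The HT29 cells are an established line of colorectal cancer, and t-hESC is a line of transformed pluripotent stem cells per the labels. HT29 cells received 10 µM of VXN or the solvent DMSO, and t-hESC cells received 10 µM of VXN, 1 µM of BIX or DMSO. The labels give 48 hours for every sample, in a treatment field that names DMSO even for treated samples, so the groups rest on the sample titles. What the code name VXN stands for is not stated in the labels. The name BIX commonly denotes an inhibitor of G9a and GLP, which methylate histones, and the series title concerns drugs that alter the mark these enzymes write. No label gives a transgene or a clone for either line, and the way in which t-hESC cells were transformed is not stated there.

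Before S phase the origin recognition complex, CDC6 and CDT1 load MCM hexamers onto DNA, an act called licensing, and CDC45 and the GINS complex then turn the loaded hexamer into the moving helicase. Primase with polymerase alpha starts new strands, polymerases delta and epsilon extend them behind the PCNA clamp, and FEN1 and LIG1 finish the fragments of the lagging strand. Cyclin E, CDC25A and E2F transcription factors control entry into S phase, and E2F factors are known to drive many of the genes named here in dividing cells.

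Gene counts ran from 13137026 to 24492838 per library, so that a gene with 0 counts may lie as high as 0.122 to 0.228 CPM, by counting error alone. CPM are counts scaled to a common library size. All 37 genes passed the filter on low counts, and the lowest count of any of them was 36, for GINS4 in an HT29 VXN library. The t-hESC libraries carried 4958 to 5619 CPM of 8 pluripotency markers in sum, against 11.9 to 16.1 CPM in HT29. The HT29 libraries carried 4140 to 4909 CPM of 8 intestinal markers, against 351 to 426 CPM in t-hESC, although the intestinal markers CDX1 and CDH17 stayed under 1 CPM in HT29. CDX2 lay at 1.22 to 1.73 CPM there. KRT18 made up most of the sum in HT29 (2196 to 3230 CPM) and in t-hESC (237 to 312 CPM). LGALS4 had 619 to 653 CPM in HT29 and 0.165 to 0.706 CPM in t-hESC. Of 7 fibroblast markers 3 stayed under 1 CPM in t-hESC, and their sum of 680.0 to 949 CPM there was mostly THY1. Genes were tested with edgeR's quasi-likelihood test, and a gene is called higher or lower at a Benjamini-Hochberg adjusted p under 0.05 over the 22495 genes tested. The series describes 2 biological replicates per condition, and a p-value here covers just the variation among them, which may be partly technical. That variation is pooled over the groups and moderated over genes, so a p-value or SE does not rest on a gene's own 2 libraries per group alone.

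**Figure D1:**
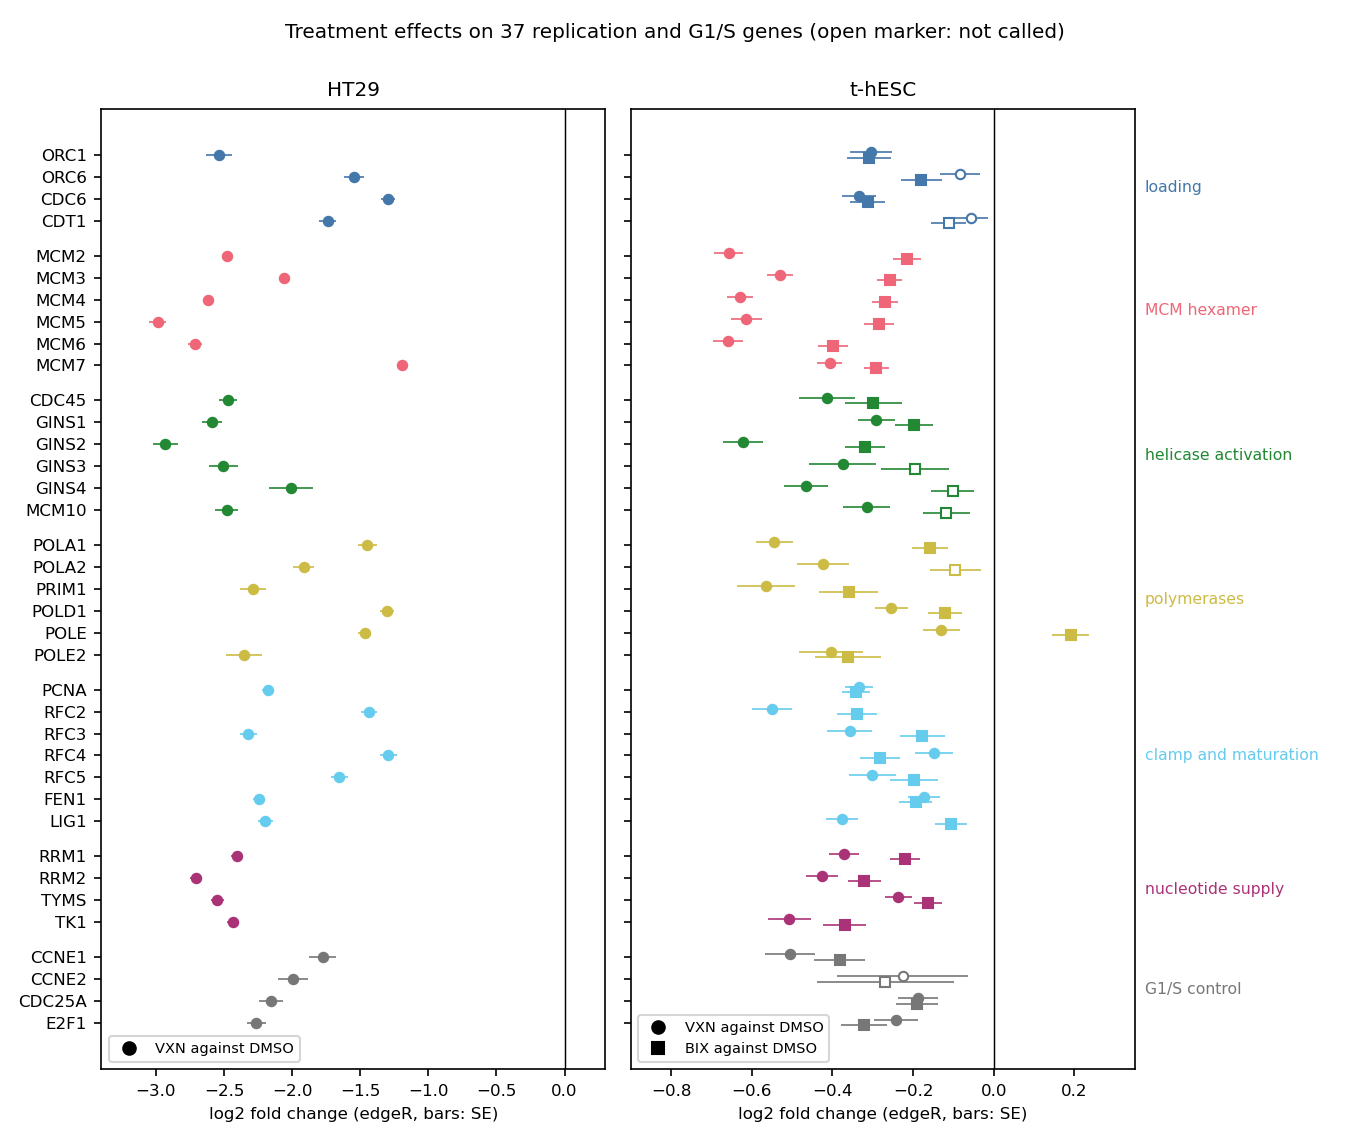
Log2 fold change of each of the 37 genes (points, with SE bars) under VXN against DMSO in HT29 (left) and under VXN or BIX against DMSO in t-hESC (right, on a narrower axis), ordered and coloured by role. In HT29 all points lie between -2.99 and -1.19, and in t-hESC all but POLE under BIX lie below 0.

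Promoter sequences of some of the genes are shown because E2F-type letters recur in them. A window of 250 bases before to 50 after the start, from RefSeq (GRCh38.p14), was matched for 33 of the 37 genes, that is for all but CCNE2, GINS4, MCM4 and MCM5. The letters TTTCCCGC, TTTCGCGC, TTTGGCGC or TTTGCCGC, searched on both strands, stood in 19 of the 33 windows (57.6%), against 908 of 27305 windows of all genes (3.3%) and 4.8% of those of the other genes tested here. These matches can overlap, since TTTGGCGC on one strand and TTTCGCGC on the other can share bases. CCAAT was found in 57.6% of the windows of the replication genes and in 35.7% of all windows, and TTTGAA in 3.0% and 15.4%. The median GC content was 66% over the 33 windows and 58.3% over all windows. The 4 windows below are those of the genes with a window that fell most (GINS2, MCM6) and least (MCM7) under VXN in HT29, and of PCNA. Each lies on the minus strand, at chr16:85688905-85689204 for GINS2, chr2:135876394-135876693 for MCM6, chr7:100101348-100101647 for MCM7 and chr20:5126573-5126872 for PCNA. Capitals mark the E2F-type letters.
GINS2: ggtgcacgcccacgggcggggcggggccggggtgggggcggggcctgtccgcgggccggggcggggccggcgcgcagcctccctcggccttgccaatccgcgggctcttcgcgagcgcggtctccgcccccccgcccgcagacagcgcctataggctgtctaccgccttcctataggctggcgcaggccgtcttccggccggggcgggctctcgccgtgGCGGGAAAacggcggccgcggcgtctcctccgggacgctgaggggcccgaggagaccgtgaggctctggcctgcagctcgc
MCM6: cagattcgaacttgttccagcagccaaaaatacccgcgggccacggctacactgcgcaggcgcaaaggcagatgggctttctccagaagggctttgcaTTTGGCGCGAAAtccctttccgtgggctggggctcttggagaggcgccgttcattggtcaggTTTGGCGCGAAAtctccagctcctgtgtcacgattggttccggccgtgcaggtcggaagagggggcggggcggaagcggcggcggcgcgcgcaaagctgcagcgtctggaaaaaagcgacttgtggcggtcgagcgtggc
MCM7: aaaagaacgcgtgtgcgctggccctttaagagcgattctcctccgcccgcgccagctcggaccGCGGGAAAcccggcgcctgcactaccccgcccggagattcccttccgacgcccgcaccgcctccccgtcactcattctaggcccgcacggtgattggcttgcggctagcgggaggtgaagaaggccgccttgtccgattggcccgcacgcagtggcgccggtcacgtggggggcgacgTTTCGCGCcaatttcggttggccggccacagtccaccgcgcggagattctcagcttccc
PCNA: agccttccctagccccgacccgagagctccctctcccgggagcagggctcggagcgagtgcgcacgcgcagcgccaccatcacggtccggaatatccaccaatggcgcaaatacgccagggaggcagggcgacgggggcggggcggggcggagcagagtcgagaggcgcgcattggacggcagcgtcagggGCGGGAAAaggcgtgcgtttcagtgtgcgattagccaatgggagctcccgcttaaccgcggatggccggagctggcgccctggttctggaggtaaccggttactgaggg
MCM6 carries 4 matches in 2 stretches of overlapping letters, MCM7 has 2 matches, and GINS2 and PCNA have 1 each. MCM7 and PCNA have more than 1 window in the table, and the one listed first is shown. A match is a description of letters and not a site of binding.

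The main comparison of HT29 cells asked what VXN did to these transcripts. All 37 genes fell, and none rose, where 26.9% of all genes tested were called lower and 33.0% higher. Their median log2 fold change was -2.24, against 0.055 over all genes tested. Each of the 37 fell at least 2-fold, and 24 fell at least 4-fold, sizes reached by 7.41% and 2.30% of all genes. Together the 37 genes took 0.0908 and 0.0897% of the gene counts in the HT29 VXN libraries, against 0.400% in each HT29 DMSO library. In such bulk samples fewer cells in S phase and less RNA per cell cannot be told apart.

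Genes of helicase loading fell unequally under VXN in HT29. ORC1, the largest subunit of the origin recognition complex, had 5.81 and 5.11 CPM in HT29 VXN, against 33.3 and 30.4 CPM in HT29 DMSO. That is a fall by 2.54 ± 0.094 on the log2 scale (SE), or 5.80-fold (edgeR adjusted p = 2.29e-34). The groups did not overlap, as was the case for every one of the 37 genes in this comparison, where 33.8% of all genes tested lay lower without overlap and 42.4% higher. ORC6, another subunit, fell by 1.54 ± 0.075 (SE). CDC6, which with CDT1 brings the MCM hexamer to the origin, fell by 1.30 ± 0.050, with 35.7 and 37.2 CPM under VXN and 90.9 and 87.9 CPM under DMSO in HT29. CDT1 had 18.2 and 18.1 CPM under VXN, against 62.9 and 58.5 CPM under DMSO in HT29, a fall by 1.74 ± 0.059 (SE, edgeR adjusted p = 2.59e-36). The fall of ORC1 was larger than those of CDC6, ORC6 and CDT1 by several standard errors.

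Among the subunits of the MCM hexamer, the ring that unwinds the DNA, 5 fell more than 4-fold and MCM7 did not. MCM5 (chromosome 22, 35400140 to 35455031, GRCh38.p14) had 12.7 and 13.3 CPM in HT29 VXN, against 100.5 and 105 CPM in HT29 DMSO. Its fall by 2.99 ± 0.061 on the log2 scale (SE), or 7.93-fold, was the largest of the 37 (edgeR adjusted p = 8.48e-49). MCM2, MCM3, MCM4 and MCM6 fell by 2.48, 2.06, 2.62 and 2.71. MCM2 had 47.9 and 48.9 CPM under VXN and 268 and 270.4 CPM under DMSO, and MCM6 had 25.6 and 22.0 CPM under VXN and 159 and 155 CPM under DMSO. MCM7 (chromosome 7, 100092728 to 100101397) kept 191 and 182 CPM under VXN, against 429 and 423 CPM under DMSO, a fall by 1.19 ± 0.032 (SE, edgeR adjusted p = 9.52e-42). This was the smallest fall of the 37 genes.

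The make-up of the hexamer's transcripts therefore shifted in HT29. MCM2 to MCM7 summed to 381 and 367 CPM in HT29 VXN, against 1482 and 1466 CPM in HT29 DMSO. MCM7 made up 50.1 and 49.6% of that sum in HT29 VXN and 28.9% in each HT29 DMSO library, and MCM5 made up 3.33 and 3.62% against 6.78 and 7.19%. These shares are of CPM and not per transcript length, so each gene's share is set only against its own in other libraries. In t-hESC the share of MCM7 was 25.9 and 26.0% under VXN, 23.7 and 22.9% under BIX and 23.4 and 23.5% under DMSO. MCM7 overlaps the coding gene AP4M1 and holds the miRNA genes MIR25, MIR93 and MIR106B, and the libraries do not mark strand. AP4M1, named for that overlap, had 53.0 and 53.2 CPM in HT29 VXN and 59.2 and 57.2 CPM in HT29 DMSO, and its part in the MCM7 value was not tested.

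**Figure D2:**
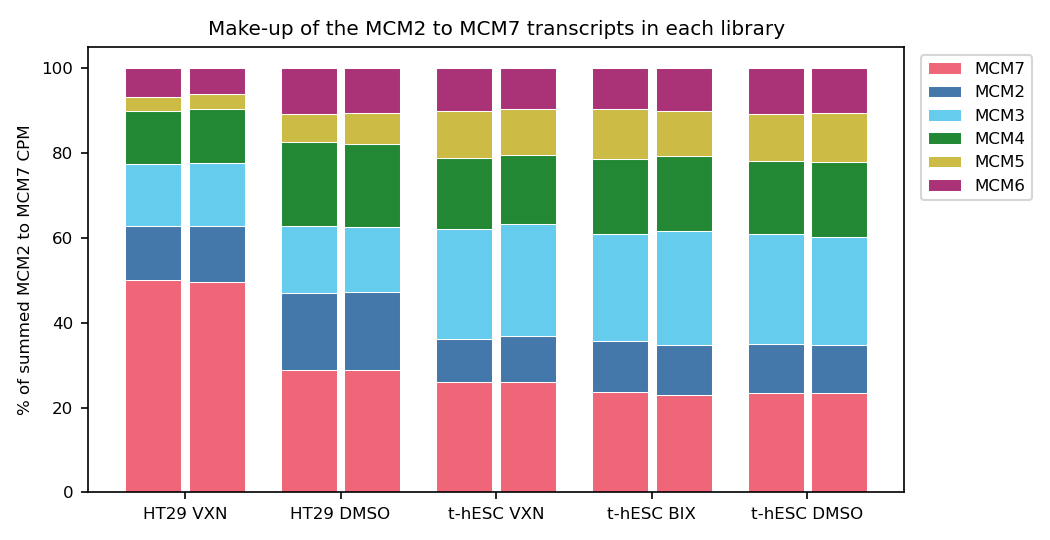
Share of each MCM gene in the summed MCM2 to MCM7 CPM of each of the 10 libraries (stacked bars, in %, 2 bars per group). MCM7, at the bottom, takes 50.1 and 49.6% in HT29 VXN and 28.9% in each HT29 DMSO library, and 22.9 to 26.0% in the t-hESC libraries.

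All 6 genes of helicase activation fell at least 4-fold in HT29. GINS2, a subunit of the GINS complex (chromosome 16, 85676198 to 85688954), had 4.94 and 3.95 CPM under VXN, against 34.3 and 34.1 CPM under DMSO, and fell by 2.93 ± 0.093 on the log2 scale (SE, edgeR adjusted p = 4.84e-38). Its partners GINS1 and GINS3 fell by 2.59 and 2.50. GINS4, already low in HT29 DMSO, had 1.57 and 2.28 CPM under VXN and 7.37 and 7.98 CPM under DMSO and fell by 2.01 ± 0.16 (SE). CDC45, which completes the helicase with GINS, fell by 2.47 ± 0.065, with 14.02 and 12.2 CPM under VXN and 71.5 and 74.5 CPM under DMSO. MCM10, which helps to set the helicase in motion, fell by 2.48.

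All 6 polymerase genes fell in HT29. The catalytic subunits of polymerases delta, alpha and epsilon, POLD1, POLA1 and POLE, fell by 1.30, 1.45 and 1.47 on the log2 scale. PRIM1, the catalytic subunit of primase, and POLE2 and POLA2, accessory subunits of polymerases epsilon and alpha, were at -2.29, -2.36 and -1.92. POLE had 43.4 and 43.2 CPM in HT29 VXN, against 118 and 122 CPM in HT29 DMSO. POLE2 had 2.62 and 2.63 CPM under VXN and 13.2 and 13.8 CPM under DMSO.

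PCNA, the clamp that holds polymerases on the DNA, had 53.3 and 57.2 CPM in HT29 VXN, against 249 and 249.8 CPM in HT29 DMSO, a fall by 2.18 ± 0.042 on the log2 scale (SE, edgeR adjusted p = 3.98e-50). The subunits of its loader fell by different sizes: RFC3 fell by 2.32 ± 0.064 and RFC5 by 1.66 ± 0.062, while RFC2 and RFC4 fell by 1.44 ± 0.059 and 1.29 ± 0.063 (SE). FEN1, the flap endonuclease, and LIG1, the ligase of the lagging strand, fell by 2.24 and 2.20. PCNA has 4 named pseudogenes in the annotation, and reads shared with them could be split in the authors' counting. ORC1, RFC3, RFC5, FEN1, RRM2 and TYMS have from 1 to 3 such copies.

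The 4 genes of nucleotide supply fell by 2.41 to 2.70 on the log2 scale. RRM2, the regulated subunit of ribonucleotide reductase, had 38.1 and 36.3 CPM in HT29 VXN, against 241 and 244 CPM in HT29 DMSO. RRM1, the large subunit, had 51.9 and 51.8 CPM under VXN and 279.8 and 269.8 CPM under DMSO. TYMS, which makes thymidylate, and TK1, which salvages thymidine, fell by 2.55 ± 0.048 and 2.43 ± 0.043 (SE). TYMS overlaps ENOSF1, which fell by 1.19 and is named for that overlap. ORC1, GINS2, RFC5 and CCNE2 also overlap coding genes, named for that overlap too, whose part in their values was not tested. PRPF38A (over ORC1) fell by 0.76 under VXN in HT29, to a mean of 59.4 CPM. GSE1 (GINS2) and WSB2 (RFC5) rose by 0.27 and 0.37, to means of 195 and 149 CPM. Over CCNE2, INTS8 fell by 0.43 to a mean of 49.3 CPM, and NDUFAF6, with a mean of 9.89 CPM, was not called. Of the G1/S control genes, the transcription factor gene E2F1 fell by 2.26 ± 0.068 and the phosphatase gene CDC25A by 2.16 ± 0.088 (SE). The cyclin E genes CCNE1 and CCNE2 fell by 1.78 ± 0.097 and 2.00 ± 0.11, and CCNE2 had 4.85 and 4.91 CPM under VXN and 18.3 and 20.6 CPM under DMSO.

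**Figure D3:**
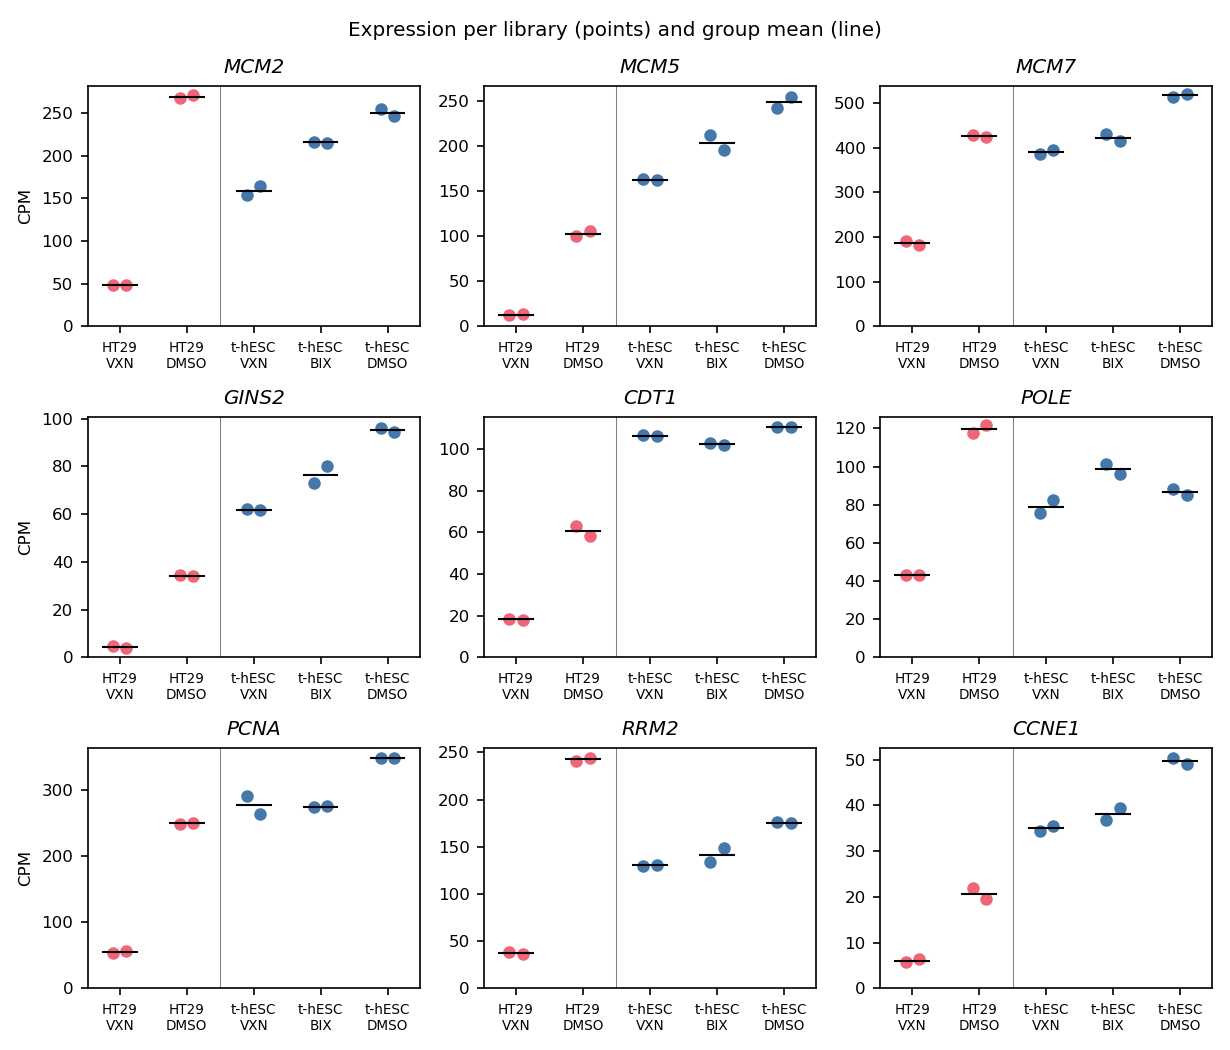
CPM of 9 of the genes in every library (points, with the group mean as a line), HT29 groups at left in red and t-hESC groups at right in blue, each axis starting at 0. In HT29 the VXN libraries lie far below the DMSO libraries for each gene shown, while in t-hESC the distances are smaller and CDT1 stays between 102 and 111 CPM in all 6 libraries.

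The next comparison asked how t-hESC cells responded to VXN. Here 34 of the 37 genes fell, none rose and 3 were not called, where 14.6% of all genes tested were called lower and 14.5% higher. The median log2 fold change was -0.37, against 0.0036 over all genes, and the largest fall was 1.58-fold. The 37 genes took 0.404% of gene counts in each t-hESC VXN library, against 0.527 and 0.525% in t-hESC DMSO.

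The MCM hexamer fell most in t-hESC under VXN, with a median of -0.62. MCM6 had 150.4 and 147 CPM in t-hESC VXN, against 235 and 234 CPM in t-hESC DMSO, a fall by 0.66 ± 0.037 on the log2 scale (SE, edgeR adjusted p = 2.70e-23). MCM2 fell by 0.66 ± 0.036, with 153 and 164 CPM under VXN and 254 and 247 CPM under DMSO, groups that lie far apart. MCM3, MCM4 and MCM5 fell by 0.53, 0.63 and 0.61. MCM7 fell least of the 6 here too, by 0.41 ± 0.031 (SE), and is not called in the authors' deposited table. Among the genes of helicase activation GINS2 fell by 0.62 ± 0.049, and GINS1, GINS3, GINS4, MCM10 and CDC45 fell by 0.29 to 0.47.

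Of the 4 helicase loading genes 2 fell and 2 were not called. CDC6 and ORC1 fell by 0.33 ± 0.042 and 0.30 ± 0.053 on the log2 scale (SE). CDT1 had 107 and 106 CPM in t-hESC VXN and 110.5 and 111 CPM in t-hESC DMSO, and its log2 fold change of -0.056 ± 0.042 (SE) was not called (edgeR adjusted p = 0.357). ORC6 was not called either, at -0.084 ± 0.050 (edgeR adjusted p = 0.218). The remaining gene with no call was CCNE2, at -0.22 ± 0.16 (edgeR adjusted p = 0.331), which had only 4.78 and 3.83 CPM in t-hESC VXN and 5.38 and 4.71 CPM in t-hESC DMSO, so that the groups overlapped.

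All 6 polymerase genes fell. PRIM1 and POLA1 fell by 0.56 ± 0.072 and 0.54 ± 0.045 (SE), POLA2, POLE2 and POLD1 by 0.42, 0.40 and 0.25. POLE fell by 0.13 ± 0.047 (edgeR adjusted p = 0.0282), and this call was lost without t-hESC VXN replicate 1 (-0.073), without t-hESC DMSO replicate 1 (-0.11) and with DESeq2. All 7 clamp and maturation genes fell, from RFC4 at -0.15 to RFC2 at -0.55, with PCNA at -0.33, RFC3 at -0.36, RFC5 at -0.30, FEN1 at -0.17 and LIG1 at -0.38. The RFC4 call was lost without t-hESC VXN replicate 2 (-0.072), without t-hESC DMSO replicate 2 (-0.15) and with DESeq2, which also lost that of CDC25A. In nucleotide supply TK1 fell by 0.51 ± 0.053, RRM2 by 0.43 ± 0.040, RRM1 by 0.37 ± 0.037 and TYMS by 0.24 ± 0.034 (SE). RRM2 had 129.9 and 131 CPM in t-hESC VXN, against 176 and 175 CPM in t-hESC DMSO. CCNE1 fell by 0.51 ± 0.062, E2F1 by 0.24 ± 0.055 and CDC25A by 0.19 ± 0.050.

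The falls under VXN were larger in HT29 than in t-hESC for all 37 genes, in a test of the difference itself. Its median was -1.84 on the log2 scale, against 0.054 over all genes, of which 20.3% were called lower and 22.9% higher. The differences ran from -2.37 ± 0.075 for MCM5 to -0.78 ± 0.045 for MCM7 (SE, edgeR adjusted p = 1.84e-37 and 6.22e-24). By role the medians were -2.16 for nucleotide supply, -2.15 for helicase activation, -1.90 for the MCM hexamer, -1.87 for G1/S control, -1.82 for clamp and maturation, -1.57 for loading and -1.42 for the polymerases. CDT1, at -1.74 in HT29 and -0.056 in t-hESC, is an example of a gene that fell in HT29 and was not called in t-hESC, and its difference was -1.68 ± 0.074 (SE, edgeR adjusted p = 7.73e-30). POLA1, at -1.45 in HT29 and -0.54 in t-hESC, differed less, by -0.90 ± 0.085. Across the 37 genes the log2 fold changes of VXN in the lines, which share no library, had a Pearson correlation of 0.41 and a Spearman correlation of 0.38. These are descriptions over genes, which are not independent.

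BIX in t-hESC gave smaller falls. Of the 37 genes 30 fell, POLE rose and 6 were not called, where 12.2% of all genes tested were called lower and 10.9% higher. The median log2 fold change was -0.26, against 0.0015 over all genes, and the 37 genes took 0.456 and 0.460% of gene counts in t-hESC BIX, against 0.527 and 0.525% in t-hESC DMSO. MCM6 again fell most, with 175 and 181 CPM in t-hESC BIX, against 235 and 234 CPM in t-hESC DMSO, a fall by 0.40 ± 0.037 on the log2 scale (SE, edgeR adjusted p = 2.03e-13). The falls were small: with a test against a fold of 1.2 in place of any change, 1 gene passed as lower, where 0.516% of all genes did, and under VXN in t-hESC 17 passed, where 1.97% of all genes did.

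All 6 MCM genes fell under BIX, by 0.22 (MCM2) to 0.40 (MCM6). ORC1, CDC6 and ORC6 fell by 0.31, 0.31 and 0.18, and CDT1, at -0.11 ± 0.043 (SE), was not called (edgeR adjusted p = 0.0534). In helicase activation GINS2, CDC45 and GINS1 fell by 0.32, 0.30 and 0.20, while GINS3, MCM10 and GINS4 were at -0.20, -0.12 and -0.10 with no call. PRIM1 and POLE2 fell by 0.36 and 0.36, and POLA1 and POLD1 by 0.16 and 0.12, while POLA2 was at -0.096 with no call. DESeq2 did not call POLE2, POLA1, POLD1, ORC6, RFC3, RFC5, LIG1 or CDC25A and made 22 calls of lower in all. Without t-hESC BIX replicate 1 the calls of ORC6 (-0.14), POLA1 (-0.12), RFC3 (-0.16), RFC5 (-0.18) and CDC25A (-0.12) were lost. Without t-hESC DMSO replicate 1 those of ORC6 (-0.16) and POLA1 (-0.12) were, without t-hESC DMSO replicate 2 those of RFC3 (-0.16), RFC5 (-0.19) and POLD1 (-0.10), and without t-hESC BIX replicate 2 that of POLD1 (-0.10). CDT1 was called (-0.11) without either t-hESC VXN library.

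POLE, the catalytic subunit of polymerase epsilon (chromosome 12, 132623762 to 132687342), went against the others. It had 101 and 96.0 CPM in t-hESC BIX, 75.9 and 82.2 CPM in t-hESC VXN and 88.2 and 85.0 CPM in t-hESC DMSO. The rise under BIX was 0.19 ± 0.046 on the log2 scale (SE, edgeR adjusted p = 0.00102). The BIX libraries both lay above the DMSO libraries, but the call was lost without t-hESC BIX replicate 1 (0.15) or t-hESC DMSO replicate 2 (0.15).

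All 7 clamp and maturation genes fell under BIX, among them PCNA by 0.34 ± 0.035 and RFC2 by 0.34 ± 0.049 (SE), RFC4 by 0.28, RFC5 by 0.20, FEN1 by 0.19 and RFC3 by 0.18. LIG1 fell by 0.11 ± 0.040 (edgeR adjusted p = 0.0466), a call lost in 12 other settings, which include 7 that leave out a library (-0.12 to -0.068). TK1, RRM2, RRM1 and TYMS fell by 0.37, 0.32, 0.22 and 0.16. CCNE1, E2F1 and CDC25A fell by 0.38, 0.32 and 0.19, and CCNE2 was at -0.27 ± 0.17 (SE) with no call. CCNE1 had 36.9 and 39.4 CPM in t-hESC BIX, against 50.3 and 49.0 CPM in t-hESC DMSO. The comparisons of VXN and of BIX share the t-hESC DMSO libraries, so their values are given side by side and not correlated.

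VXN at 10 µM was also set directly against BIX at 1 µM in t-hESC. The doses differ 10-fold, so compound and dose cannot be told apart. Of the 37 genes 17 were lower under VXN, 1 was higher and 19 were not called, where 11.2% of all genes tested were called lower and 11.6% higher. The median difference was -0.13 on the log2 scale, against 0 over all genes.

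The roles differed in how many genes were called. All 6 MCM genes were lower under VXN, from MCM2 at -0.44 ± 0.038 to MCM7 at -0.12 ± 0.032 (SE, edgeR adjusted p = 3.19e-15 and 0.00450). MCM2 had 153 and 164 CPM in t-hESC VXN, against 216 and 215 CPM in t-hESC BIX. POLA1, POLA2, POLE and POLD1 were lower by 0.39, 0.33, 0.32 and 0.13, GINS4, GINS2 and MCM10 by 0.36, 0.30 and 0.20, LIG1, RFC2 and RFC3 by 0.27, 0.21 and 0.18, and RRM1 by 0.15. Without t-hESC BIX replicate 1 the calls of MCM7 (-0.09), POLD1 (-0.11) and RFC3 (-0.19) were lost and RRM2 (-0.18) was called. Without t-hESC VXN replicate 1 those of MCM10 (-0.16) and POLD1 (-0.11) were lost and PRIM1 (-0.32) was called. Without t-hESC BIX replicate 2 those of MCM10 (-0.16) and RFC3 (-0.17) were lost and TK1 (-0.22) was called, and without t-hESC VXN replicate 2 that of RFC3 (-0.14) was lost. None of the 4 loading genes and none of the 4 G1/S control genes was called, with differences of 0.095 ± 0.053 (SE) for ORC6, 0.056 ± 0.044 for CDT1, 0.0048 ± 0.057 for ORC1 and -0.021 ± 0.045 for CDC6. PCNA was at 0.0078 ± 0.036, with 290.4 and 263 CPM in t-hESC VXN and 275 and 275 CPM in t-hESC BIX, so that the groups overlapped. RFC4 was higher under VXN, at 0.13 ± 0.050 (edgeR adjusted p = 0.0447), a call lost in 14 other settings, which include 7 that leave out a library (0.059 to 0.14). That roles differ was not itself tested.

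**Figure D4:**
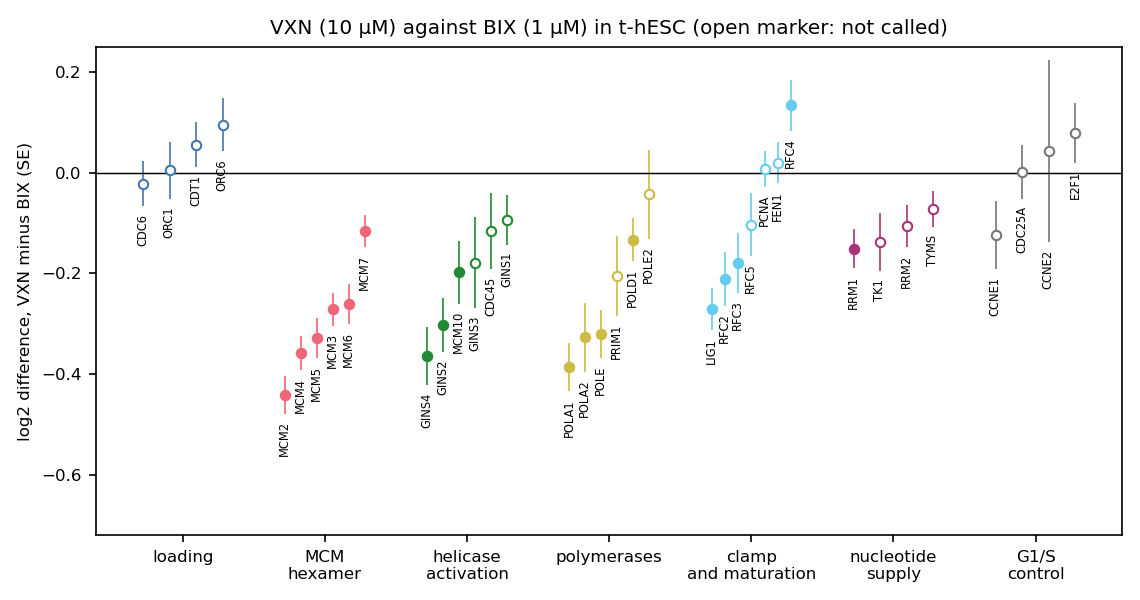
Log2 difference between VXN and BIX in t-hESC for each of the 37 genes (points, with SE bars), grouped by role, with genes that were not called as open points. All 6 MCM genes lie below 0, from -0.44 to -0.12, and the 4 loading genes lie between -0.021 and 0.095 with no call.

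Under DMSO the lines themselves differed for 35 of the 37 genes: 10 were higher in HT29, 25 were lower and 2, GINS3 and E2F1, were not called. Of all genes tested 45.6% were called lower and 38.9% higher, so calls were common among all genes. The median difference was -0.55 on the log2 scale, against -0.12 over all genes. GINS4 had 7.37 and 7.98 CPM in HT29 DMSO, against 74.4 and 72.5 CPM in t-hESC DMSO, a difference of -3.26 ± 0.074 (SE, edgeR adjusted p = 5.44e-47). POLA1, GINS2, CDC25A, MCM3, ORC1, MCM5, CCNE1 and ORC6 were also more than 2-fold lower in HT29. The other 16 that were lower ranged from -0.97 (POLE2) to -0.15 (POLA2).

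Of the 4 genes of nucleotide supply 3 were higher in HT29. TK1 had 228 and 232 CPM in HT29 DMSO, against 67.4 and 69.1 CPM in t-hESC DMSO, a difference of 1.75 ± 0.041 (SE), and RRM1 and RRM2 were higher by 0.59 and 0.47, while TYMS was lower by 0.73. Cyclin E also divided: CCNE2 was higher in HT29 by 1.95, with 18.3 and 20.6 CPM in HT29 DMSO against 5.38 and 4.71 CPM in t-hESC DMSO, and CCNE1 was lower by 1.26. CDC45, POLE, FEN1 and RFC3 were higher by 1.09, 0.47, 0.32 and 0.21. MCM2 and RFC5 were higher by 0.10 and 0.16, but the sign of MCM2 turned with upper-quartile factors (-0.0077) and with the gene length trend removed (-0.075), which also turned that of RFC5 (-0.016). The calls of MCM2 (0.065) without t-hESC DMSO replicate 2 and of RFC5 (0.12) without HT29 DMSO replicate 1 were lost. That of POLA2 was lost without HT29 DMSO replicate 2 (-0.12), t-hESC DMSO replicate 1 (-0.15) or t-hESC DMSO replicate 2 (-0.15), and GINS3 was called (-0.22) without HT29 DMSO replicate 1. GINS3 and E2F1 were called lower with upper-quartile factors (-0.20 and -0.14) and with the length trend removed (-0.23 and -0.15), and upper-quartile factors ended the calls of RFC3 (0.10) and RFC5 (0.052).

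**Figure D5:**
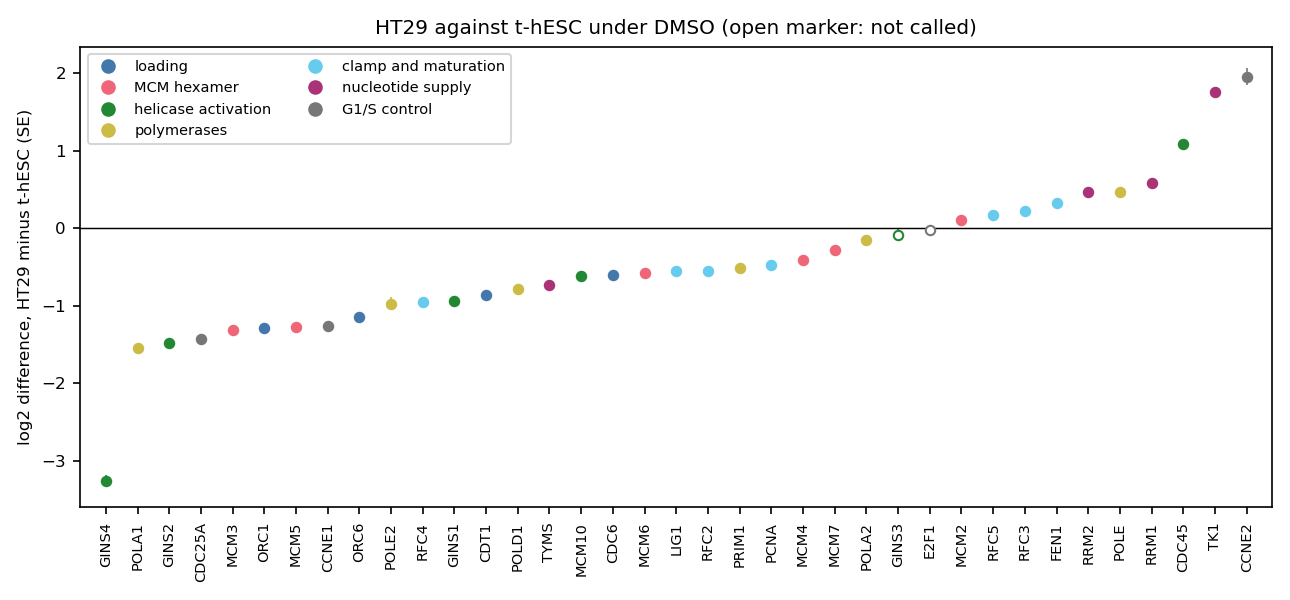
Log2 difference between HT29 and t-hESC under DMSO for each of the 37 genes (points, with SE bars), in order of size and coloured by role. GINS4 is lowest at -3.26, and CCNE2 and TK1 are highest at 1.95 and 1.75.

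The medians of the genes with and without E2F-type letters lay close to each other, and the difference was not tested. Under VXN in HT29 the median log2 fold change was -2.20 for the 19 genes with E2F-type letters in their window and -2.26 for the 14 without. In t-hESC the medians were -0.37 and -0.34 under VXN and -0.20 and -0.29 under BIX, with the genes that have the letters given first. Among the other genes tested, 44.1% of those with such letters and 31.4% of those without were lower under VXN in HT29, with medians of -0.091 and 0.036.

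Other genes of replication and of G1/S control were counted beside them. Of 38 further replication genes 36 fell under VXN in HT29, POLD4 rose and MCM9 was not called, where 26.9% of all genes tested were lower and 33.0% higher. In t-hESC 24 fell and 2 rose under VXN, and 20 fell and 1 rose under BIX, where 14.6% of all genes were lower and 14.5% higher under VXN, and 12.2% and 10.9% under BIX. ASF1B, a histone chaperone gene, and CDC7, a kinase gene of origin firing, fell by 2.64 and 2.57 in HT29. POLD4, the smallest subunit of polymerase delta, had 85.5 and 85.5 CPM in HT29 VXN, against 29.6 and 29.3 CPM in HT29 DMSO. Of 21 further G1/S control genes 17 fell and 1 rose under VXN in HT29, 13 fell and 3 rose under VXN in t-hESC, and 12 fell and 2 rose under BIX. The shares of these 21 that rose under VXN and BIX in t-hESC lie near those of all genes. E2F8, a repressor of the E2F family, fell by 3.14 in HT29 under VXN, and E2F6 rose by 0.57. CDK6, a partner of the D cyclins, rose by 0.38 under VXN and by 0.71 under BIX in t-hESC.

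A further list held 12 brake genes, which restrain S phase entry or, for GMNN, licensing. Of these 12, 3 rose and 9 fell under VXN in HT29. In t-hESC 4 rose and 1 fell under VXN, and 2 rose and 1 fell under BIX. Of all genes tested 33.0% were higher and 26.9% lower under VXN in HT29, 14.5% and 14.6% under VXN in t-hESC, and 10.9% and 12.2% under BIX, so the counts under BIX lie near those of all genes. The 3 that rose in HT29 and the 1 that fell under VXN in t-hESC are no larger a share than that of all genes. CDKN1A, which encodes the CDK inhibitor p21, had 98.0 and 96.8 CPM in HT29 VXN, against 9.59 and 10.8 CPM in HT29 DMSO, a rise by 3.25 ± 0.062 on the log2 scale (SE, edgeR adjusted p = 1.03e-50). In t-hESC it had 119 and 119.9 CPM under VXN, 75.9 and 80.1 CPM under BIX and 59.0 and 61.2 CPM under DMSO, rises by 0.99 and 0.37. Across the t-hESC groups the order of CDKN1A levels was thus the reverse of that of the summed MCM2 to MCM7 level. That sum was 1489 and 1516 CPM under VXN, 1814 and 1817 CPM under BIX and 2192 and 2215 CPM under DMSO. In HT29 it was 381 and 367 CPM under VXN and 1482 and 1466 CPM under DMSO. Both CDKN1A and that sum were higher in t-hESC VXN than in HT29 VXN. A link between them was not tested. CDKN2B, the gene of the CDK inhibitor p15, had 124 and 122 CPM in HT29 VXN, against 23.0 and 22.6 CPM in HT29 DMSO. In the t-hESC libraries CDKN2A, CDKN2B and CDKN2C had 0 to 0.315 CPM, near the level of 3 counts, and no fold is given there.

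FBXW7, which marks cyclin E for breakdown, rose by 0.58 in HT29 and by 0.25 in t-hESC under VXN. GMNN, the gene of the CDT1 inhibitor geminin, fell by 1.81 under VXN in HT29, by 0.18 under VXN in t-hESC and by 0.33 under BIX. The other genes of this list that fell in HT29 were RBL1 (-2.26), CDKN2C (-2.39), CDKN2D (-0.69), RB1 (-0.62), RBL2 (-0.55), CDKN2A (-0.47), CDKN1C (-0.42) and CDKN1B (-0.31). CDKN1C and CDKN1B rose by 0.63 and 0.33 under VXN in t-hESC, and CDKN1C by 0.29 under BIX.

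Genes of G2/M and mitosis fell beside the replication genes in HT29 under VXN, 32 of 32 with a median of -2.25. Of all genes tested 26.9% were lower and 33.0% higher in that comparison, with a median of 0.055. In t-hESC 16 of the 32 fell and 1 rose under VXN (median -0.14), and 12 fell and 3 rose under BIX (median -0.081). Of all genes 14.6% were lower and 14.5% higher under VXN and 12.2% and 10.9% under BIX, so the 3 that rose under BIX are near that share. MKI67, a proliferation marker, had 71.4 and 72.6 CPM in HT29 VXN, against 337 and 329 CPM in HT29 DMSO. It rose in t-hESC, by 0.30 ± 0.039 under VXN and by 0.67 ± 0.038 under BIX (SE), with 157 and 165 CPM under VXN, 203 and 214 CPM under BIX and 132 and 130.1 CPM under DMSO. MKI67 thus rose in t-hESC under each compound, where 34 of the 37 genes fell under VXN and 30 under BIX.

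The authors' deposited tables call all 37 genes lower under VXN in HT29, 20 lower and 17 not called under VXN in t-hESC, and 6 lower and 31 not called under BIX. The 6 under BIX in the authors' deposited table are CDC6, MCM2, MCM3, MCM5, RFC2 and RRM2. Among the 17 not called under VXN in t-hESC are ORC1, ORC6, CDT1, MCM7, GINS3, POLA2, POLD1, POLE and POLE2. The others of these 17 are PCNA, RFC4, FEN1, LIG1, TK1, CCNE2, CDC25A and E2F1. Over all genes with an adjusted p in the authors' deposited tables, 17.6% were lower under VXN in HT29, 3.81% under VXN in t-hESC and 2.08% under BIX. Each call of these 37 in the authors' deposited tables had the same direction as the call made here.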

How the data were processed

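The authors deposited raw counts, all whole numbers, of 60651 genes and of 1181 repeat families, and the repeat families entered no library size. Its 4 further columns that match no sample were not used. Log2 fold changes and adjusted p-values stand in the authors' deposited comparison tables, from which only calls and directions were taken. Per the labels' protocols the kit used on total RNA was one without strand marking. The submitters' processing notes list STAR, fastp 0.20.1, DESeq2 1.34.0, FastQC 0.11.9 and, as builds, hg38 and GRCh38, without saying what each did. No source used here gives the counting program, so how reads of overlapping genes or pseudogene copies were assigned is unknown.

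Counts were fitted here with edgeR 4.0.16 in R 4.3.3, over all 10 libraries in 1 model of group means, with TMM factors and the robust quasi-likelihood F test, on the 22495 genes that filterByExpr kept at a minimum count of 10. The fit had 5 residual degrees of freedom beside 56.7 prior ones and a biological coefficient of variation of 0.0207. Each SE is the size of the log2 fold change divided by the square root of its F statistic. CPM were computed from counts and TMM-scaled library sizes. Correlations of log2 CPM within groups ran from 0.9955 to 0.9981. Alternatives were DESeq2 1.42.0, its type of size factors within edgeR, factors from the upper quartile, a minimum count of 50 or none, a fit of the compared groups alone, a block for the replicate number, a test against a fold of 1.2, removal of a gene length trend (loess per library) and each library left out in turn. The test was checked on simulated counts.

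The 37 genes and the further lists (38 replication, 21 G1/S control, 12 brake and 32 G2/M genes) were chosen with earlier results of these data known, and no list was tested as a set. Outside the 37, the rule for named genes takes the 12 brakes and, per list and treatment comparison, up to 2 called genes with the lowest and up to 2 with the highest log2 fold change at a mean of at least 4 CPM. AP4M1, ENOSF1, PRPF38A, GSE1, WSB2, INTS8, NDUFAF6 and MCM9 were named outside this rule after their values were seen. A gene that the rule also takes is not reported here.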

Additional observations from a re-analysis of the deposited data

Results flagged for a closer look

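All 37 genes differed between the lines in their response to VXN, by the test of the difference itself (edgeR, adjusted over all genes tested). The values are the log2 change in HT29 minus that in t-hESC, and a negative value means a larger fall in HT29 for each of the 37. In loading they were -2.23 for ORC1, -1.46 for ORC6, -0.96 for CDC6 and -1.68 for CDT1. In the MCM hexamer they were -1.82, -1.53, -1.99, -2.37, -2.06 and -0.78 for MCM2 to MCM7 in the order of their numbers. In helicase activation they were -2.17 for MCM10, -2.06 for CDC45, -2.30 for GINS1, -2.31 for GINS2, -2.13 for GINS3 and -1.54 for GINS4.

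Among the polymerase genes they were -0.90 for POLA1, -1.49 for POLA2, -1.72 for PRIM1, -1.05 for POLD1, -1.34 for POLE and -1.95 for POLE2. In clamp and maturation they were -1.84 for PCNA, -0.89 for RFC2, -1.96 for RFC3, -1.15 for RFC4, -1.35 for RFC5, -2.07 for FEN1 and -1.82 for LIG1. In nucleotide supply they were -2.04 for RRM1, -2.28 for RRM2, -2.31 for TYMS and -1.93 for TK1. In G1/S control they were -1.27 for CCNE1, -1.77 for CCNE2, -2.02 for E2F1 and -1.97 for CDC25A.

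Outside the 37, the same test called 29 of the further genes that the naming rule takes and that lay above the level of 3 counts in each group of the test. Of all genes tested 20.3% were called lower and 22.9% higher by it. Outside the brakes the rule picks extreme log2 fold changes, and those under VXN enter this difference, so such calls were favoured in advance. Of the 29, those with a positive difference were CDKN1A (2.26), POLD4 (1.12), E2F6 (0.48) and FBXW7 (0.33). Among the brakes CDKN1B (-0.63), CDKN1C (-1.04), RB1 (-0.60), RBL1 (-1.997), RBL2 (-0.67) and GMNN (-1.63) were negative. Among further replication and control genes ASF1B (-2.58), CDC7 (-2.34), TICRR (-2.38), TIPIN (-0.61), UNG (-1.95), E2F7 (-1.004), E2F8 (-2.82), TFDP1 (-0.67), CDK6 (-0.93), MYBL2 (-1.68) and CCNA2 (-2.39) were. So were the mitotic genes MKI67 (-2.51), TOP2A (-2.55), HMMR (-1.74), CCNB1 (-2.04), MAD2L1 (-2.29), CENPF (-2.47), BUB1 (-1.82) and KIF20A (-2.29). CDKN2B was called too, but it lay near the level of 3 counts in t-hESC and no difference is given. Groups of 2 libraries allow no test for a library that stands apart.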

How the results depend on the processing

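All 37 genes stayed lower under VXN in HT29, and in the difference between the lines, in every alternative run, the libraries left out in turn included. With a test against a fold of 1.2 the number of genes lower was 1 under BIX, 17 under VXN in t-hESC and 3 for VXN against BIX, where 0.516%, 1.97% and 1.80% of all genes were lower, and the number higher was 0 under BIX and 0 for VXN against BIX. The rise of POLE under BIX gave 0 to 1 calls over the libraries left out. The higher level of RFC4 under VXN than under BIX gave 0 calls with DESeq2, with its size factors in edgeR, with upper-quartile factors, without a count filter, in a fit of the compared groups alone and with the length trend removed, and 0 to 1 over the libraries left out. For these counts the cause was not tested, except that the fold test asks for a larger change by construction.

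Between the lines under DMSO, MCM2 turned to -0.0077 with upper-quartile factors and to -0.075 with the gene length trend removed, and RFC5 to -0.016 with the trend removed. The median of all genes in that comparison was -0.12 as reported, -0.23 with upper-quartile factors, -0.20 with the length trend removed, and 0 with DESeq2 or no count filter, which test more genes. Log2 fold changes correlated with gene length over 18625 genes with Spearman values of 0.16 under BIX, -0.047 under VXN in t-hESC and -0.023 under VXN in HT29. With the trend removed 29, 33 and 37 of the 37 genes were lower in these comparisons, where 13.7%, 16.1% and 27.8% of all genes were. Lengths were those of RefSeq genes and not of transcripts. The replicate numbers showed no sign of pairing the samples (correlations of same-numbered deviations from -0.033 to 0.019). These correlations run over all genes kept, low ones included, so they cannot show that the samples are unpaired. A replicate block gave 31, 34 and 37 genes lower under BIX, VXN in t-hESC and VXN in HT29, where 11.9%, 14.4% and 26.9% of all genes were. For VXN against BIX it gave 17 lower and 1 higher (10.9% and 11.3% of all genes). For the difference between the lines in response it gave 37 lower (20.2%). Between the lines under DMSO it gave 25 lower and 10 higher (45.5% and 38.8%). Depth limits GINS4 and POLE2 most in HT29 and CCNE2 most in t-hESC, where their levels were the lowest of the 37.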
